A study of Mus musculus with 54 samples.

Results

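Dendritic cells of the mouse kidney were taken from the 27 single-cell libraries of a study that compared ways of dissociating and storing kidney tissue. A cell barcode was counted as a dendritic cell when it held at least 3 UMIs (unique transcript molecules) over the MHC class II genes H2-Aa, H2-Ab1 and Cd74, at least 1 UMI over Flt3, Cd209a, Xcr1 and Clec9a, and 0 UMIs of C1qa, C1qb, C1qc, Cd79a, Cd3e and Pecam1. A gene missing from a library's table counted as 0. The rule found 379 barcodes among the 77656 of the cell libraries, or 0.488%, and among 175959 in the series when its single-nucleus libraries are included. The cells were thus chosen by the measured UMIs of these 13 genes, whose levels in the cells are given as a description with no test.

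The first 6 groups, of 3 libraries each, came from male AFAPIL.1DEL C57BL/6J littermates aged 19 weeks. Their kidneys were dissociated either cold, with a protease from Bacillus licheniformis on ice, or warm, with a commercial enzyme kit at 37 °C. Each suspension was loaded fresh, after cryopreservation for 6 weeks in medium with DMSO, or after methanol fixation. The 3 remaining groups were cold dissociated: Balb/c males aged 18 weeks loaded fresh, and wild-type Balb/c females aged 15 weeks, all former breeders, loaded fresh or after cryopreservation for 2 weeks. No group received an experimental exposure, and each library came from 1 kidney. The column headers of the fresh, cryopreserved and fixed C57BL/6J libraries carried the same 3 tags, shared by warm and cold libraries, without saying what a tag marks.

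Dendritic cells carry antigen to T cells on MHC class II molecules. Conventional dendritic cells develop from precursors that depend on the receptor Flt3 and divide into the cDC1 kind, which needs the transcription factors Irf8 and Batf3, bears Xcr1 and Clec9a, and cross-presents antigen to CD8 T cells, and the cDC2 kind, which bears Cd209a and shares many genes with monocytes. In the kidney they lie in the interstitium among far more numerous macrophages, which also carry MHC class II but express the complement genes C1qa, C1qb and C1qc.

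The tables set limits on where such a cell could be found at all. The study's methods set a minimum of 10 cells per gene in each library. The tables still held 852 genes seen in 1 to 9 barcodes of warm methanol replicate 3, and Xcr1 in 4 barcodes of cold cryopreserved replicate 2. Cd209a was at 0 in 9 of the 27 libraries, Clec9a in 14, Flt3 in 18 and Xcr1 in 20. A table is said to hold a gene when it has at least 1 UMI of it, and a gene listed at 0 or missing is not held. The fresh warm libraries held only Cd209a of these 4 genes, and the fresh female libraries held Clec9a in all 3 replicates and Xcr1 in 2, but neither Cd209a nor Flt3. Cold fresh replicate 1 of the C57BL/6J mice held Clec9a and Flt3 alone. All 4 genes were at 0 in cold methanol replicate 1, warm methanol replicates 2 and 3 and Balb/c male replicates 1 and 3, so the 0 dendritic cells of these 5 libraries were fixed by the table and are not a measurement of absence. The comparisons of gene levels between preparations are therefore given again with cells that carried a gene held on both sides, chosen after the data had been seen.

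The 27 libraries held 782 to 7928 barcodes with median depths of 343 to 3330.5 UMIs. The 22 libraries with dendritic cells held 7 to 38 of them, and in all 22 their median depth, 774 to 9399 UMIs, lay above that of the whole library, by a factor of 1.13 to 3.98. Of the 379 cells, 44, or 11.6%, lay above the 95th percentile of UMIs in their library, and doublets were not called. No dendritic cell barcode occurred in more than 1 library, and at most 51 barcodes of any kind were shared by 2 libraries. None of the 27 pairs of replicates agreed within counting noise. That check took in the 5 libraries with no dendritic cells, so it does not describe these cells alone.

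The genes that marked the cells split them into kinds. Cd209a without Xcr1 or Clec9a marked 248, Xcr1 or Clec9a without Cd209a marked 104, both marked 3, and Flt3 alone marked 24. The fresh cold C57BL/6J libraries held 9, 36 and 38 dendritic cells, of which 0, 19 and 30 were of the Cd209a kind and 2, 13 and 3 of the Xcr1/Clec9a kind. The fresh warm libraries held 8, 9 and 7, all of the Cd209a kind. In the fresh female libraries all 7, 15 and 8 were of the Xcr1/Clec9a kind. After cryopreservation the female libraries, which then held Cd209a too, gave 15, 26 and 20 cells with 8, 22 and 12 of the Xcr1/Clec9a kind. Which of the 4 genes a table held limits the kinds it could show, and no split is compared between groups.

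**Figure D1:**
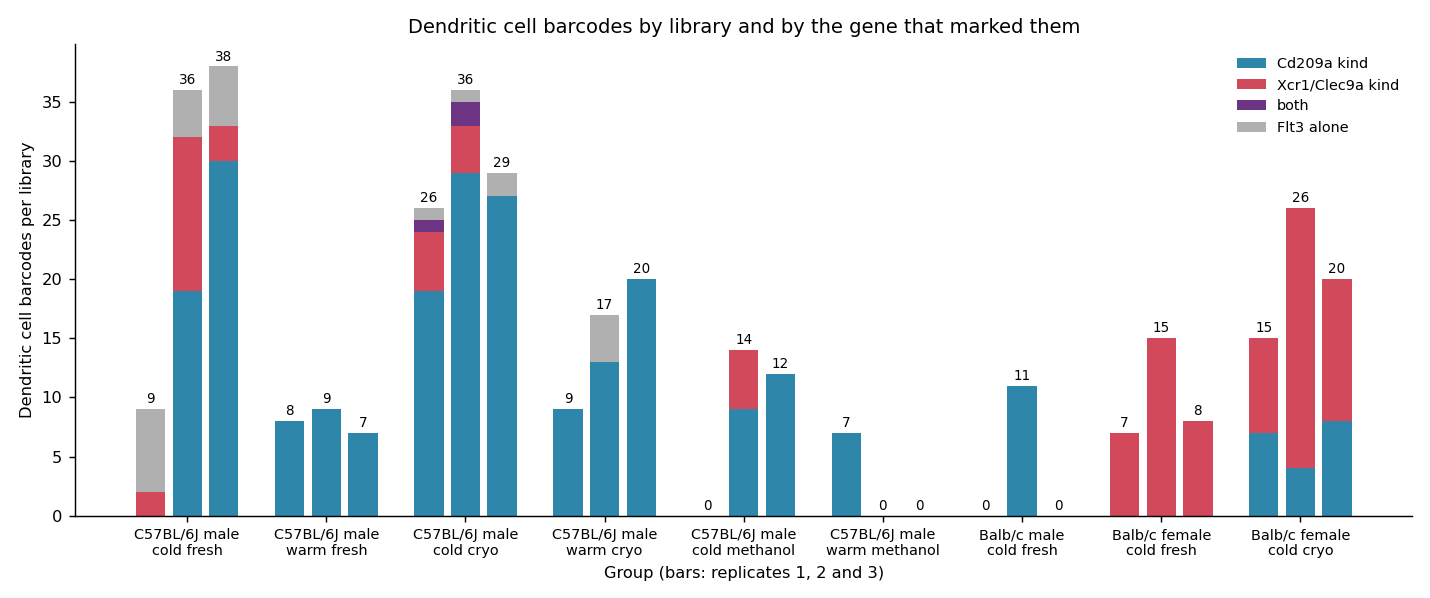
Number of dendritic cell barcodes (vertical axis) in each of the 27 cell libraries, 3 per group, stacked by the gene that marked them. Bars of the fresh warm group hold Cd209a-marked cells alone, those of the fresh female group hold Xcr1/Clec9a-marked cells alone, and 5 libraries have no bar, having none of the 4 marking genes in their tables.

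At the edge of the rule, 4 of the cells had exactly 3 MHC class II UMIs, and 10 barcodes with 2 fell outside. Exactly 1 UMI of the 4 marking genes was seen in 98 of the cells, while 3330 barcodes met every other condition with 0. Of these 3330, 502 lay in the 5 libraries whose tables held none of the 4 genes, and 2828 in the other 22. A further 228 barcodes were left out for a UMI of an excluded gene, 65 of them for exactly 1. Summed over each set, Cst3, the protease inhibitor cystatin C that dendritic cells express strongly, stood at 15263 CPM (counts per 1000000 UMIs of the cells summed) in the 379 cells, at 14207 in the 98 with a single marking UMI and at 1499 in the 2828 without one. The 4 cells with exactly 3 MHC class II UMIs stood apart from the rest, with Cst3 at 1099.8 CPM and the lysozyme gene Lyz2 at 13491, against 2667 for Lyz2 over all 379, and the 10 barcodes just outside stood at 1216 and 5250. Irf8 stood at 863 CPM in the 379, 732 in the 98 and 70.1 in the 2828. Between the 98 and the 281 cells with more marking UMIs, Lyz2 stood at 4073 against 2320 CPM and Zbtb46 at 18.6 against 33.9, the latter on 5 and 37 UMIs. These differences were not tested, and the 2 sets mix libraries differently. The 98 include 10 of the 11 Balb/c male cells and 7 of the 9 of C57BL/6J cold fresh replicate 1. Of the 14 UMIs of Ccr7, the receptor of migrating dendritic cells, 13 lay in the 98.

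The marking genes were rare outside MHC class II barcodes. In the 22 libraries that held any of the 4, they were seen in 55 of 56199 barcodes with under 3 MHC class II UMIs, or 0.0979%, at a median of 1426 UMIs per barcode. Among B cells, barcodes with Cd79a and MHC class II, 2 of 1055 carried one, or 0.190%, at a median of 1067 UMIs. Among barcodes with 3 or more C1q UMIs, 132 of 3371 did, or 3.92%, at a median of 1650 UMIs. Among MHC class II barcodes with none of the excluded genes the share was 11.8%, 379 of 3207, at a median of 2687 UMIs.

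Marker genes that the rule did not name were checked over the sum of all 379 cells. Of the broad dendritic cell list, Cst3 gave 20742 UMIs, Plbd1 821, Id2 786, the integrin gene Itgax 62 and the transcription factor gene Zbtb46 42. Of the list of 20 mature migratory dendritic cell genes, at least 1 UMI was seen in 234 of the 379 cells, or 61.7%, and its sum per library ran from 153 to 1403 CPM. Cd83 gave 156 UMIs over the libraries, the chemokine gene Ccl5 74, of which 44 came from cryopreserved female replicate 1, and Fscn1 1. The migration receptor gene Ccr7 gave 14, of which 7 came from fresh female replicate 3 and 6 from cryopreserved warm replicate 3. Of the 11 plasmacytoid dendritic cell genes at least 1 UMI was seen in 215 cells, or 56.7%, with sums of 50.6 to 4437 CPM. The highest was that of Balb/c male replicate 2. Bst2 gave 400 UMIs, Tcf4 153, Ly6d 151 and Siglech, which 6 of the 27 tables held, 34, with 15 from fresh female replicate 1. Of the macrophage list Mertk had 1 UMI, Ms4a7 5, Adgre1 20 and Csf1r 74, against 3625 of Lyz2. The B cell genes Ms4a1 and Pax5, held by 22 and 8 of the 27 tables, were at 0, though Ighm gave 304 UMIs. The T cell gene Trac had 2 UMIs, the neutrophil gene S100a8 6 and the endothelial gene Emcn 9.

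Transcripts from the marker lists of other cells were present in the same barcodes. These lists share genes with those of dendritic cells. Ccr2, S100a4 and Ms4a4c were in the monocyte and cDC2 lists, Ly6d in the B cell and plasmacytoid lists, and Ccl5 in the NK cell and mature lists. Which of these UMIs came from the cells themselves was not tested. At least 1 UMI of the monocyte list was seen in 369 of the 379 cells, of the macrophage list in 361, of the proximal tubule list in 336, of the NK cell list in 214, of the thick ascending limb and distal list in 196, of the B cell list in 193, of hemoglobin in 157, of the endothelial list in 54, of the T cell list in 25 and of the neutrophil list in 17. The NK cell list was carried by the lectin receptor genes Klrd1 and Klrk1, with 384 and 117 UMIs, against 3 of Nkg7 and 1 of Ncr1, and the B cell list by Ighm and Ly6d. Summed per library, the tubule list ranged from 262 to 46348 CPM over the 22 libraries, hemoglobin from 0, in 6 libraries, to 22644, the macrophage list from 1643 to 10043 and the monocyte list from 1697 to 12722. The tubule and hemoglobin sums are given beside each comparison of preparations, with the number of genes called when tubule, hemoglobin and mitochondrial genes are left out of the test. The part of these transcripts in the level of any other gene was not tested.

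**Figure D2:**
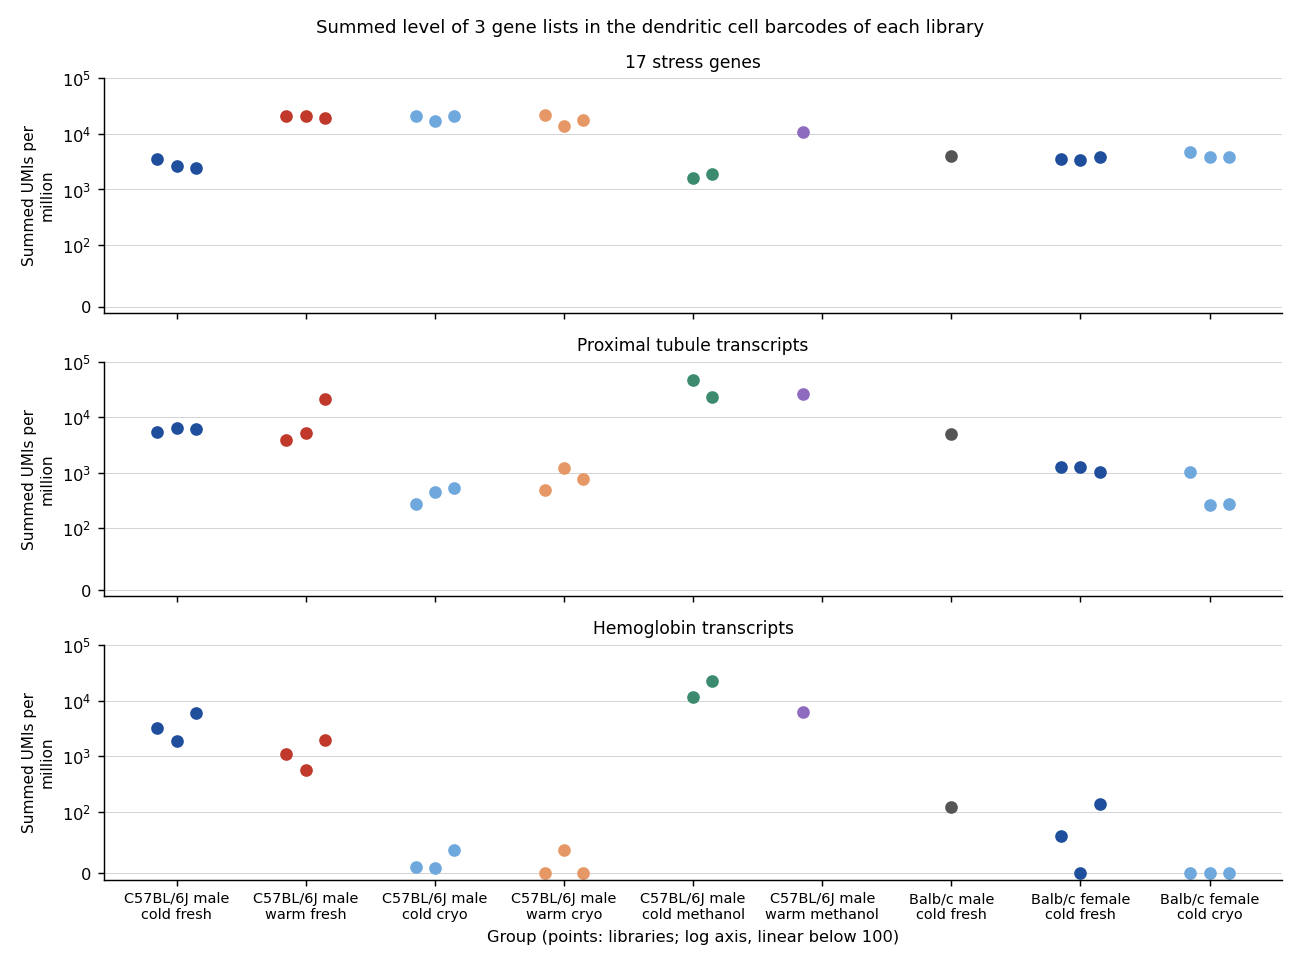
Summed level in dendritic cells of the 17 stress response genes the study used, of proximal tubule genes and of hemoglobin genes, in CPM on an axis that is logarithmic above 100 and linear below, with 1 point per library. Stress genes lay between 14087 and 21643 in fresh warm and in both cryopreserved C57BL/6J groups and between 1629 and 4825 in the cold libraries of the other groups, with the 1 warm methanol library at 10722, while in C57BL/6J cells tubule and hemoglobin levels were lowest after cryopreservation and highest after methanol fixation.

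The dendritic cells were set beside macrophages, here the 3494 barcodes with at least 3 MHC class II and 3 C1q UMIs and none of the 4 marking genes, and beside the 1181 B cells. Because the rule chose these classes on genes of the same cells, the differences are a description, and the fits below serve only to list genes and support nothing. In the fresh cold libraries the broad dendritic cell list summed to a median of 29055 CPM in dendritic cells (range 10353 to 38134, 7 libraries), 12800.4 in macrophages (9 libraries) and 1076 in B cells (8 libraries). The cDC1 list stood at 4929, 999.7 and 629.5 in the same order. The cDC2 list went the other way, at 3152 (999 to 5996) in dendritic cells, 5416 (2996 to 7350.1) in macrophages and 521 in B cells. The macrophage list stood at 2877 (1643 to 6596) in dendritic cells and 19757 (16073 to 28248) in macrophages, ranges that do not overlap. The B cell list stood at 233 in dendritic cells and 19188 in B cells. By kind, the broad dendritic cell list stood at a median of 30004 in the Xcr1/Clec9a kind (5 libraries). The Cd209a kind had 3 libraries, C57BL/6J replicates 2 and 3 and Balb/c male replicate 2, where 10 of 11 cells had 1 marking UMI. In the Cd209a kind the broad list stood at 7047 (7029 to 12112), within the macrophage range of 5951 to 17607. In that kind the monocyte list stood at 10513 (macrophages 5289), the cDC2 list at 5996 and the macrophage list at 6596.

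**Figure D3:**
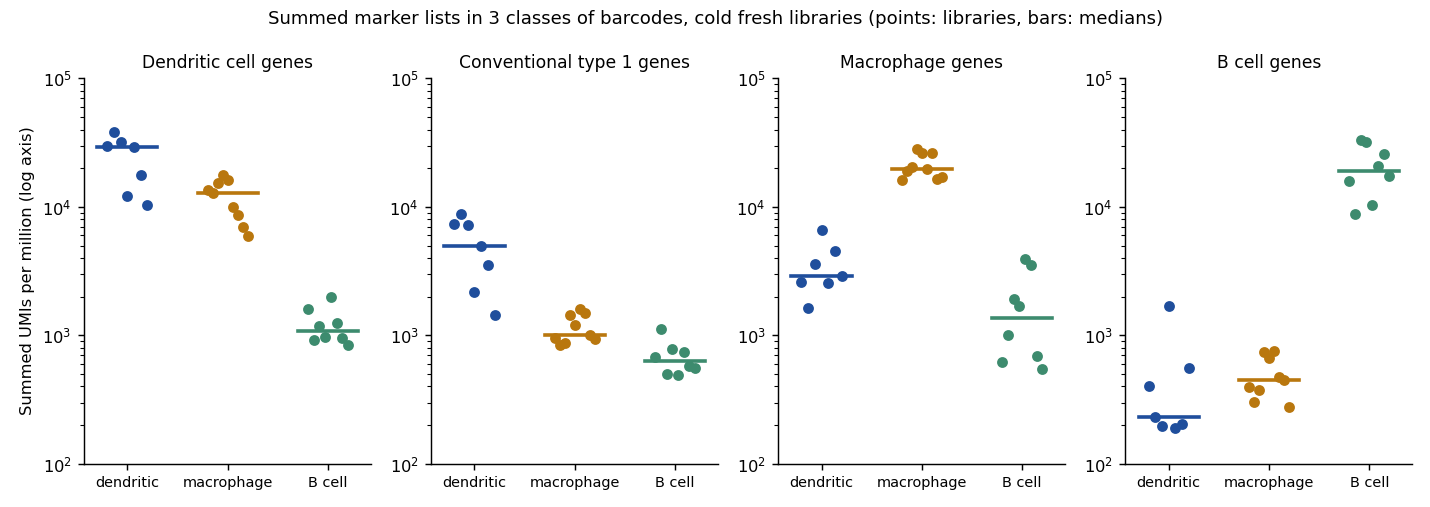
Summed level of the broad dendritic cell, cDC1, macrophage and B cell marker lists, in CPM on a logarithmic axis, in dendritic cells, macrophages and B cells of the fresh cold libraries. In dendritic cells the broad list is mostly Cst3. Points are libraries and bars medians; macrophage genes in dendritic cells (median 2877) lie below every macrophage library (lowest 16073).

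Against macrophages of the same 7 libraries, 72 of 985 genes in the fit stood higher and 125 lower in dendritic cells at an absolute log2 difference of at least 1 and an adjusted p under 0.05, 7.31% and 12.7% of the genes and 20% in all, from which nothing is read since the rule used these cells. The higher genes included Naaa, an acid amidase gene, at 1035 ± 760 (SD, n = 7) against 45.7 ± 18.1 CPM, and the integrin gene Itgb7 at 265 ± 65.8 against 14.6 ± 16.0. Both were higher in 7 of 7 libraries. The chemokine receptor gene Ccr2 stood at 834 ± 249 against 221 ± 122, Id2, a regulator of dendritic cell development, at 646 ± 343 against 80.0 ± 29.8, and the intermediate filament gene Vim at 483 ± 208 against 53.5 ± 22.5. Of the macrophage list 11 of 12 genes stood lower, with a median log2 difference of −3.62, and of the 6 cDC2 genes tested 5 stood lower and 1 higher, with a median of −1.93. The lipid carrier gene Apoe was at 180.4 ± 255 against 9073 ± 2307, the receptor gene Csf1r at 30.4 ± 33.5 against 501 ± 139, and Ms4a7 at 0 in all 7 libraries against 401 ± 249, at least 53.2-fold lower. All 13 tubule genes and all 3 hemoglobin genes tested stood lower too. Mitochondrial genes were not in the fit. Over the fresh cold libraries they summed to a median of 107463 CPM in dendritic cells (7 libraries) and 248381 in macrophages (9 libraries). They were at 0 in Balb/c male replicate 2, so its CPM rest on the other genes alone. The 7 libraries mix strains: the membrane protein gene Tmem176b, of the cDC2 list, was at 332, 374 and 558 CPM in the C57BL/6J dendritic cells, 839 in the Balb/c male library and 20.2, 0 and 213 in the female libraries, where only Clec9a and Xcr1 could mark a cell.

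Against B cells of 6 fresh cold libraries, 67 of 654 genes stood higher and 54 lower, 10.2% and 8.26% of the genes and 18.5% in all, again a description. Cst3 was at 20463 ± 10151 (SD, n = 6) in dendritic cells and 429 ± 225 in B cells, and Plbd1 at 675 ± 342 and 30.2 ± 41.6. Ccr2 was at 832 ± 273 and 23.4 ± 57.3, with 0 UMIs in the B cells of 5 of 6 libraries. In the other direction the immunoglobulin light chain gene Igkc was at 92.1 ± 192 in dendritic cells and 10938 ± 5180 in B cells.

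The Cd209a kind and the Xcr1/Clec9a kind were compared in the 8 libraries with at least 3 of each, a set chosen after the data had been seen: C57BL/6J cold fresh replicates 2 and 3, cold cryopreserved replicates 1 and 2, cold methanol replicate 2 and the 3 cryopreserved female libraries. Of 366 genes, 13 stood higher and 23 lower in the Xcr1/Clec9a kind, 3.55% and 6.28% of the genes and 9.84% in all; the marking genes split the cells, so the values are a description. Irf8 stood at 37.9, 175, 306, 334, 105, 0, 332 and 354 CPM in the Cd209a kind and at 1406, 2246, 1428, 1633, 0, 1429, 2144 and 2080.5 in the other, in the order of libraries above. The Xcr1/Clec9a kind stood higher in 7 of the 8 libraries, and the methanol library, with 5 cells of the Xcr1/Clec9a kind, went the other way. The lysosomal thioesterase gene Ppt1 was higher in 8 of 8 libraries, by 4.10 ± 0.42 (SE) on the log2 scale, and Id2 in 8 of 8, by 2.79 ± 0.41. Cst3 was higher in 7 of 8, at 22992 ± 8893 (SD, n = 8) against 7688 ± 3835 CPM. The immunoproteasome subunit gene Psmb9 and the proteasome activator gene Psme1, which act in the supply of peptides to MHC class I, were higher by 1.67 ± 0.28 and 1.38 ± 0.27.

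The Cd209a kind stood higher for Tmem176b, with 682, 619, 493, 482, 210.5, 564, 597 and 657 CPM against 36.5, 0, 0, 0, 406, 0, 10.1 and 0. The methanol library was again the exception. The interferon-induced gene Ifitm3 was higher in the Cd209a kind in 8 of 8 libraries, at 2122 ± 423 (SD, n = 8) against 165 ± 158, and so was the Fc receptor chain gene Fcer1g, at 1652 ± 330 against 174 ± 116. The chemokine gene Ccl6, at 462 ± 174 against 38.6 ± 39.2, the calcium-binding protein gene S100a6, at 1554 ± 263 against 155 ± 186, and the cathepsin gene Ctsh, at 783 ± 191 against 161 ± 123, did not overlap between the kinds, as held for 3.28% of all genes, a share from which nothing is read. The cDC1 list had 3 genes tested, all higher in the Xcr1/Clec9a kind (median log2 difference 2.99), and the cDC2 list had 4, of which 3 were lower (median −3.33), beside a median of 0.095 over all genes. In the 2 fresh cold libraries alone, where more genes could be tested, 19 of 644 genes stood higher and 27 lower (2.95%, 4.19% and 7.14% in all), with 7 of 8 cDC1 genes higher and 6 of 7 cDC2 genes lower; DESeq2 called 7 genes. There the cDC2 lectin gene Mgl2 had 69 UMIs in the Cd209a kind and 0 in the other, at least 12.8-fold lower, while Batf3 was at 56.8 and 190.4 CPM against 237 and 102, ranges that overlap.

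**Figure D4:**
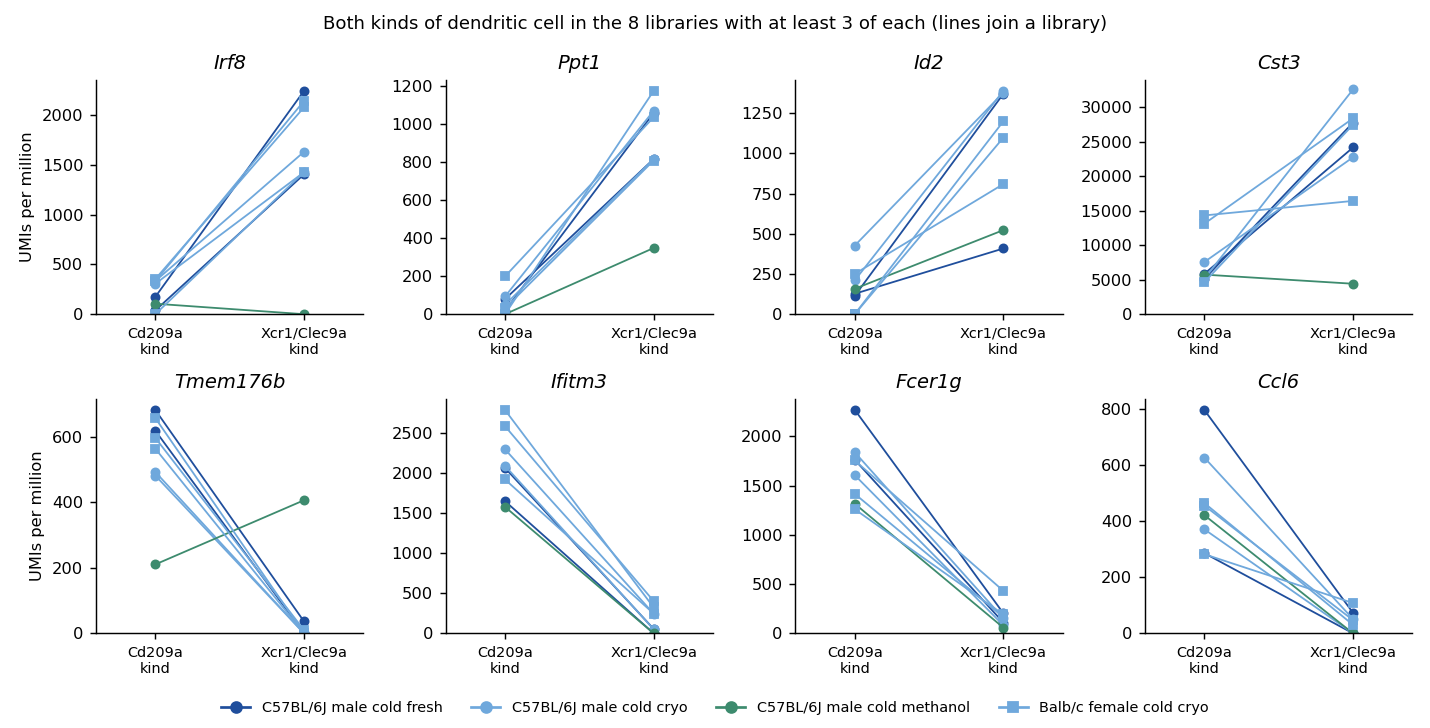
Levels of 8 genes in CPM in the Cd209a kind and the Xcr1/Clec9a kind of dendritic cell, with a line joining both kinds of each of 8 libraries. Irf8, Ppt1, Id2 and Cst3 run upward and Tmem176b, Ifitm3, Fcer1g and Ccl6 downward, except in the methanol-fixed library for Irf8, Cst3 and Tmem176b.

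Warm dissociation was compared with cold in the fresh C57BL/6J libraries, to see which genes of the dendritic cell answer to the preparation. Of 453 genes tested, 27 rose and 3 fell in the warm cells (5.96% and 0.662%, 6.62% called in all; median log2 change of all genes −0.01; edgeR quasi-likelihood test, adjusted p under 0.05 and at least a 2-fold change, 3 against 3 libraries). All 6 AP-1 and immediate-early genes tested rose, all 6 NF-kB genes and feedback inhibitors tested rose, and 8 of 10 genes of the study's stress list rose, with a median log2 change of 3.51. The counts overlap, here and in the comparisons that follow. The stress list shares Jun, Junb, Jund and Ier2 with the immediate-early list and Btg1, Btg2 and Dusp1 with the NF-kB list. The study chose its stress list on samples of this series, so it is not independent evidence of the direction. None of the 8 MHC class II presentation genes tested passed the test. A gene could pass the count filter through the group where it is high alone, so counts and medians over the tested genes of a list, here and in the comparisons that follow, are a description and are no support for a direction. With no count filter 38 genes rose and 40 fell, and the median log2 change of all genes was −0.50.

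The inducible chaperone gene Hspa1a had 0 CPM in cold replicates 1, 2 and 3 and 1756, 1809.6 and 3343 in the warm replicates. With 0 against 193 UMIs, it was at least 183-fold higher in warm cells. Jun, of the AP-1 transcription factor, was at 0, 42.5 and 97.1 in cold and 1077, 2195 and 1406 in warm cells, a log2 change of 4.80 ± 0.52 (SE, adjusted p = 0.00011). Groups did not overlap for either gene, as held for 25.4% of all genes tested. Junb was at 237, 229.7 and 121 against 2394, 3293 and 2545, a log2 change of 3.80 ± 0.25 (adjusted p = 7.8e-06). The phosphatase gene Dusp1, which damps MAP kinase signals, was at 23.7, 34.0 and 12.1 against 1676, 1721 and 646, a log2 change of 5.63 ± 0.53. Zfp36, whose product degrades cytokine mRNAs, was at 47.4, 25.5 and 24.3 against 918, 712 and 1709.6. For each of these genes the lowest warm library stood above the highest cold one.

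The cytokine gene Il1b was at 0, 0 and 24.3 CPM in cold and 1795, 1779.9 and 1064 in warm cells, 2 against 133 UMIs, a pooled ratio of 189 with a counting interval of 51.4 to 1579. The chemokine gene Ccl4 was at 0 in all 3 cold libraries and at 479, 2225 and 494 in the warm ones, at least 94.8-fold higher. Cd83, a surface protein of activated dendritic cells, was at 47.4, 8.51 and 36.4 against 798, 267 and 494, a log2 change of 4.17 ± 0.58 (adjusted p = 0.00075), and the repressor gene Etv3 at 0, 8.51 and 48.5 against 638, 267 and 456. Nfkbia, the inhibitor of NF-kB, was at 213, 85.1 and 134 against 1955, 1454 and 1216. These 5 genes kept their call with each library left out in turn. Fos, Fosb, Atf3, Egr1, Ccl3, Tnf and Cxcl2 could not be tested because they were at 0 in a library's table.

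**Figure D5:**
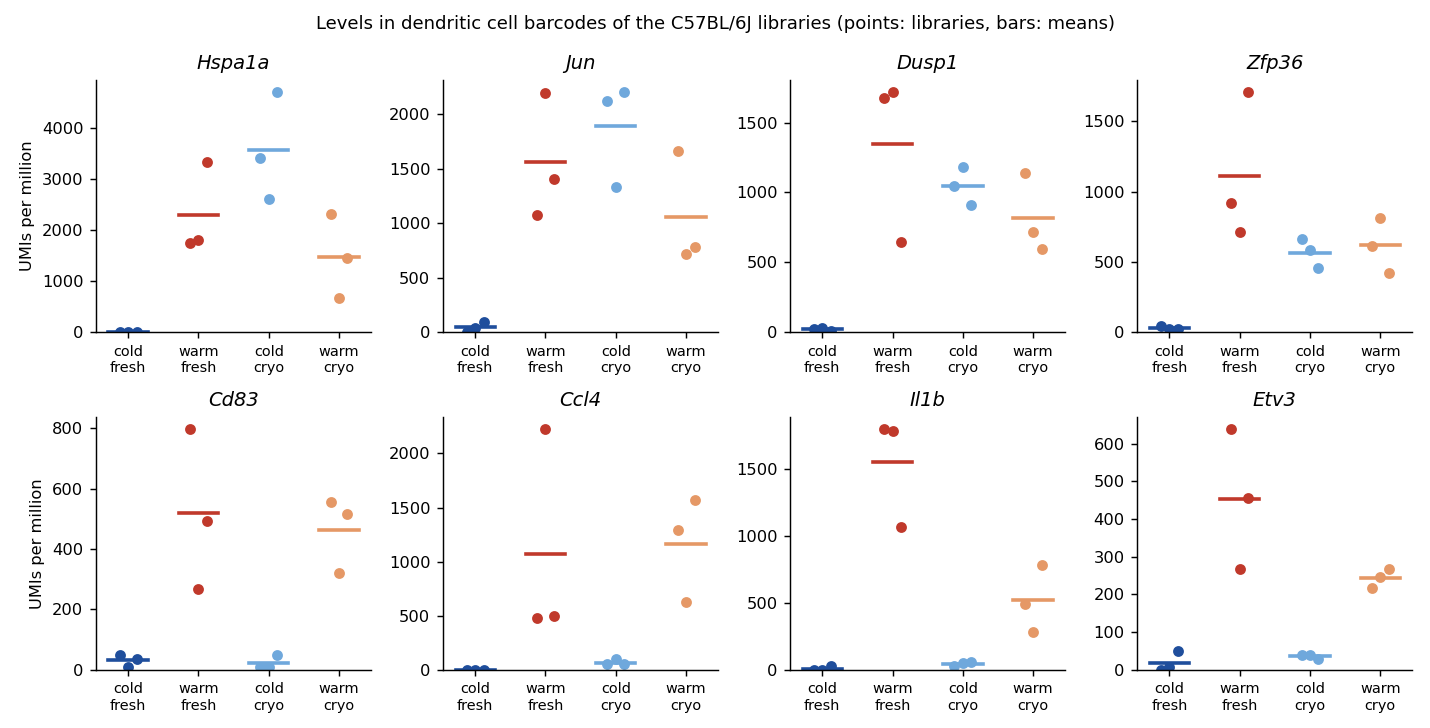
Levels of 8 genes in dendritic cells, in CPM, in the fresh cold, fresh warm, cryopreserved cold and cryopreserved warm C57BL/6J groups; points are the 3 libraries of a group and bars their means. Hspa1a, Jun, Dusp1 and Zfp36 are low in the fresh cold group alone, whereas Cd83, Ccl4, Il1b and Etv3 are high in both warm groups and low in both cold ones.

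The warm cells were all Cd209a-marked, and only some of the cold cells were. With Cd209a-marked cells alone, which leaves 2 cold libraries, 35 genes were called, 22 of them shared with the 30. Hspa1a, Jun, Il1b, Cd83 and Ccl4 kept their calls. The fall of Cst3, at 25547, 15307 and 8496 CPM in cold and 6663, 6675 and 5243 in warm cells (log2 change −1.39 ± 0.32, adjusted p = 0.021, kept only when cold replicate 3 was left out), ended there, at a log2 change of 0.12. The rise of Mgl2 (1.39 ± 0.35, likewise kept in 1 of 6 sets with a library left out) lost its call there too. Irf8, at 972, 698 and 401 against 39.9, 534 and 0, did not pass the test (adjusted p = 0.25). Tubule genes summed to 5332, 6373 and 6129 in cold and 3910.2, 5132 and 21655 in warm cells, and hemoglobin to 3223, 1855 and 6129 against 1117, 564 and 1938. Hba-a1, a hemoglobin gene, fell by 2.09 ± 0.52 on the log2 scale, a call lost without cold replicate 3 or warm replicate 1 or 2. Lyz2, of the macrophage and monocyte lists, fell too, with a log2 change of −1.32 ± 0.35 (edgeR, adjusted p = 0.039). With tubule, hemoglobin and mitochondrial genes left out, 29 genes rose and 4 fell.

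Promoter sequence was looked up for the 27 genes that rose, since they moved together. RefSeq promoters (GRCm38.p6, 250 bases before the start) were matched for 19 of the 27, under the 80% needed to compare the list with the genome, so no share is given for it. Of all 27025 promoters, 0.400% held the heat shock element, 6.87% the AP-1 site TGANTCA and 1.62% the cyclic AMP response element TGACGTCA on either strand. None of the 19 held either of the first 2, and Btg2 and Dusp1 held the response element. Both windows are shown with the element in capitals, 5′ to 3′ along the gene's strand, with the element 166 and 143 bases before the start. Btg2, an antiproliferative gene, lies on the minus strand with the window at chr1:134079294-134079341, and Dusp1 on the minus strand with the window at chr17:26508588-26508635.
Btg2: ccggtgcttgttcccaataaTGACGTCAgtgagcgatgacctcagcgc
Dusp1: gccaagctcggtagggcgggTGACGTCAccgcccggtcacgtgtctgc
Btg2 stood at 213, 119 and 97.1 CPM in cold and 878, 860.3 and 1064 in warm dendritic cells, a log2 change of 2.77 ± 0.36 (edgeR, adjusted p = 0.00039).

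Macrophages of the same 6 libraries were put through the same comparison to ask whether dendritic cells changed more or less. In macrophages the log2 changes of Hspa1a, Jun, Junb and Dusp1 were 11.06, 4.13, 3.92 and 4.79, beside 9.95, 4.80, 3.80 and 5.63 in dendritic cells, and none of the differences passed the test (adjusted p at least 0.94). Cd83 and Ccl4 rose in macrophages too, by 2.48 and 3.88 (edgeR, adjusted p = 0.00017 and 2.0e-05). Their differences from dendritic cells did not pass (adjusted p = 0.48 and 0.31). Of the 30 genes called in dendritic cells, 29 were tested in macrophages and 21 were called there as well. In macrophages 65 of 2125 genes were called in all (3.06%). The Hspa1a and Ccl4 values depend on the prior count because cold dendritic cells had 0 UMIs of both. The difference itself passed for 6 of 1774 genes (0.338% called), higher in dendritic cells for 5 (0.282%) and lower for 1 (0.0564%). Il1b rose by 3.29 in macrophages, from 67.4, 79.8 and 90.8 to 1148, 574 and 843 CPM, and by 7.16 in dendritic cells, a difference of 4.05 ± 0.81 on the log2 scale (adjusted p = 0.028). Ier2 differed by 3.14 ± 0.62. Cd14, the lipopolysaccharide coreceptor gene, was at 0, 0 and 24.3 in cold and 559, 119 and 266 in warm dendritic cells and at 668, 503 and 567 against 991, 775 and 1132 in macrophages. Id2 was at 735, 749 and 158 against 160, 59.3 and 76.0 in dendritic cells and at 54.0, 59.0 and 81.4 against 143, 254 and 277 in macrophages, opposite directions in the 2 classes. Leaving out cold fresh replicate 2 ended all 6 calls, leaving out replicate 1 or 3 gave 3 or 15, leaving out warm replicate 1, 2 or 3 gave 2, 11 or 15, and with Cd209a-marked cells 1 gene was called, none of these 6.

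Cryopreservation was compared with fresh loading in cold C57BL/6J libraries, which share their fresh controls with the warm comparison above. Of 1113 genes, 42 rose and 30 fell in cryopreserved dendritic cells (3.77% and 2.7%, 6.47% called in all; median log2 change of all genes −0.05; edgeR, 3 against 3). Of the study's stress list 8 of 11 genes rose, with a median log2 change of 2.73, of the immediate-early list 8 of 9, of the heat shock list 5 of 9 and of the NF-kB list 9 of 14. None of the 10 MHC class II presentation genes tested passed the test. Hspa1a had 0 CPM in the fresh libraries and 3406, 2604 and 4713 after cryopreservation, at least 288-fold higher. Its partner gene Dnajb1 was at 47.4, 8.51 and 24.3 against 524, 663 and 1684, a log2 change of 5.36 ± 0.61, and Jun rose to 2125, 1336 and 2206 (5.03 ± 0.39). Dusp1 rose to 1048, 1182 and 909.7, a log2 change of 5.25 ± 0.37. The transcription factor genes Klf4 and Klf2 rose by 2.90 ± 0.42 and 2.09 ± 0.31.

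Of the monocyte list 4 of 8 genes rose after cryopreservation, beside 3.77% of all genes tested. The other 4 did not pass the test, with log2 changes of 0.80 for Ifitm3 (adjusted p = 0.050), 0.54 for Ifitm6, −0.20 for Ms4a4c and −0.51 for Ccr2. Plac8 went from 142, 366 and 182 to 854, 817 and 813 CPM (1.64 ± 0.30, adjusted p = 0.00088) and Ly6c2 from 0, 42.5 and 60.7 to 262, 452 and 135 (2.67 ± 0.56). Lyz2 went from 1256, 2893 and 1675 to 8151, 3671 and 3281 and S100a4 from 142, 255 and 352 to 650.2, 769 and 677. With Cd209a-marked cells alone Plac8 and Ly6c2 kept their calls and Lyz2 and S100a4 lost theirs, at 0.58 and 0.79 on the log2 scale. Lyz2 was also not called without cryopreserved replicate 1. Ppt1 and Psmb9, genes of the Xcr1/Clec9a kind, fell by 1.59 ± 0.47 and 1.23 ± 0.36 on the log2 scale. These calls were kept in 1 and 2 of 6 sets with a library left out, and Psmb9 lost its call in the Cd209a-marked cells. In that set 84 genes were called, 52 of them shared with the 72.

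Tubule transcripts moved the other way. Gpx3, a plasma glutathione peroxidase made by the tubule, went from 1730, 3038 and 2233 to 77.6, 67.3 and 174 CPM in dendritic cells, a log2 change of −4.54 ± 0.32. Hba-a1 went from 735, 485 and 1323 to 9.70, 0 and 29.0. The summed tubule level went from 5332, 6373 and 6129 to 272, 461 and 523 and hemoglobin from 3223, 1855 and 6129 to 9.70, 9.61 and 38.7. The fresh tables held all 18 tubule and 4 hemoglobin genes of the lists, and the cryopreserved ones 13, 16 and 17 and 1, 3 and 3. With these and mitochondrial genes left out, 47 genes rose and 23 fell.

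Among warm libraries cryopreservation moved 5 of 403 genes (1.24% called), 1 up (0.248%) and 4 down (0.993%), and 73 had an unadjusted p under 0.05. None of the 13 stress genes tested passed: Hspa1a was at 1756, 1809.6 and 3343 CPM in fresh and 2312, 682 and 1453 in cryopreserved warm cells (adjusted p = 0.29), and Jun at 1077, 2195 and 1406 against 1665, 719.5 and 784. Il1b fell from 1795, 1779.9 and 1064 to 493, 284 and 784, by 1.68 ± 0.34 on the log2 scale (adjusted p = 0.034), a call kept in 2 of 6 sets with a library left out. The gene that rose was Gm10076, from 678, 801 and 912 to 3576, 4412 and 4818. Kap, a proximal tubule gene, fell from 638, 979 and 1026 to 30.8, 37.9 and 115, and Hbb-bs, of hemoglobin, from 638, 415 and 1216 to 0 in all 3. Tubule genes summed to 3910.2, 5132 and 21655 in fresh and 493, 1212 and 784 in cryopreserved cells, and hemoglobin to 1117, 564 and 1938 against 0, 37.9 and 0. The fresh tables held all 18 and 4 of these genes, and the cryopreserved ones 15, 16 and 16 and 1, 3 and 3. With tubule, hemoglobin and mitochondrial genes left out, 2 genes were called. With the shared tag as a block, 8 were, 2 up and 6 down, and with no count filter 22 rose and 21 fell. With Cd209a-marked cells alone 6 were called, 5 of them the same. Without warm fresh replicate 1 the count was 13 and without warm cryopreserved replicate 2 it was 3.

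In cryopreserved suspensions, warm dissociation against cold raised 27 and lowered 3 of 851 genes (3.17% and 0.353%, 3.53% called in all). Of the chemokine and cytokine list 3 of 8 genes rose, and of the heat shock list 0 of 9 rose and 1 fell. Ccl4 was at 48.5, 96.1 and 48.4 CPM in cold and 1295, 625 and 1568 in warm cryopreserved cells, a log2 change of 4.18 ± 0.38 (edgeR, adjusted p = 1.1e-06). Cd83 was at 9.70, 9.61 and 48.4 against 555, 322 and 516, a log2 change of 4.29 ± 0.50. Il1b was at 29.1, 48.0 and 58.1 against 493, 284 and 784. All 3 had groups that did not overlap, as held for 17% of genes tested. Rel, an NF-kB subunit gene, was at 126, 144 and 116 against 802, 701 and 956 (2.71 ± 0.29), and Etv3 rose by 2.80 ± 0.45. Of the NF-kB list 8 of 18 genes rose, with a median log2 change of 1.09, against 0.0032 over all genes. The tubule gene Fxyd2, a subunit of the sodium pump, was at 48.5, 125 and 96.8 against 216, 454 and 325 (1.97 ± 0.41, adjusted p = 0.0062), a call kept in 4 of 6 sets with a library left out. Tubule genes summed to 272, 461 and 523 in cold and 493, 1212 and 784 in warm cryopreserved cells, and hemoglobin to 9.70, 9.61 and 38.7 against 0, 37.9 and 0, over the genes held as given above. With tubule, hemoglobin and mitochondrial genes left out, 23 genes rose and 3 fell, and with Cd209a-marked cells 19 rose and 4 fell, 20 of the 23 shared with the 30.

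Hspa1a stood lower in the warm cryopreserved cells, at 2312, 682 and 1453 against 3406, 2604 and 4713 CPM, a log2 change of −1.28 ± 0.29 (adjusted p = 0.012), a call lost in Cd209a-marked cells (adjusted p = 0.085) and kept in 3 of 6 sets with a library left out. Jun (−0.85 ± 0.27, adjusted p = 0.091), Dusp1 (−0.34 ± 0.24) and Junb (0.27 ± 0.23) did not pass, and the summed stress list was at 21067, 17383 and 21136 in cold and 21643, 14087 and 17589.8 in warm cryopreserved cells. Of the 30 genes called in fresh cells 28 were tested here and 9 were called in the same direction; of the 30 called here 13 were tested in fresh cells and the same 9 were called. Whether the warm change differs between fresh and cryopreserved cells was not tested. The count was 18, 17 or 15 without cold cryopreserved replicate 1, 2 or 3.

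In the Balb/c females 8 of 755 genes rose and 0 fell after cryopreservation (1.06% called; edgeR, 3 against 3; 7 rose and 1 fell with DESeq2's size factors in edgeR). Of these 6 were genes of the mitochondrial genome. The subunit gene mt-Nd2 was at 7319.6, 5721 and 5810.2 CPM in fresh and 15475, 12235 and 11779 in cryopreserved cells, a log2 change of 1.25 ± 0.19. Jun was at 121, 13.7 and 15.2 against 999.8, 349.6 and 241, a log2 change of 3.67 ± 0.68 (adjusted p = 0.0065; not called without fresh replicate 2), and was the only one of 8 stress genes tested that passed. The summed stress list was at 3589, 3367 and 3767 in fresh and 4825, 3802 and 3795 in cryopreserved female cells, under the 17383 to 21136 of cryopreserved cold C57BL/6J cells. The female mice differed from the C57BL/6J males in strain, sex, age, the AFAPIL.1DEL genotype, past breeding, storage time, spin speeds before freezing and after thawing and library chemistry, which cannot be told apart here, and this difference was not tested. Tubule genes summed to 1250.2, 1300.3 and 1022 in fresh and 1029, 262 and 273 in cryopreserved female cells, and hemoglobin to 60.5, 0 and 137 against 0 in all 3, whose tables held no hemoglobin gene. With tubule, hemoglobin and mitochondrial genes left out, 1 gene was called. With Clec9a-marked cells alone 4 genes were called. The count was 4 without fresh replicate 2, 5 without cryopreserved replicate 1 and 29 without cryopreserved replicate 2.

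Methanol fixation was compared with fresh loading in cold C57BL/6J cells over the 2 fixed libraries with dendritic cells, which held 14 and 12. Of 623 genes 136 rose and 50 fell (21.8% and 8.03%, 29.9% called in all). With no count filter the balance turned, with 76 higher and 143 lower and a median log2 change of all genes of −0.69. All 14 tubule genes tested rose, with a median log2 change of 2.54 against 0.07 over all genes, as did all 4 hemoglobin genes. Gpx3 was at 1730, 3038 and 2233 CPM in fresh cells and 23850.3 and 9809 in fixed replicates 2 and 3, and Hbb-bs at 1730, 1021 and 3689.7 against 6653 and 11970.1. The summed tubule list went from 5332, 6373 and 6129 to 46348 and 23033 and hemoglobin from 3223, 1855 and 6129 to 11842 and 22644. With these and mitochondrial genes left out, 133 genes rose and 53 fell. Among genes that fell, Actb went from 8389, 16847 and 9236 to 2429 and 2809 and the nuclear RNA Malat1 from 26139.9, 27491 and 29117 to 7315 and 4537. Of dendritic cell genes, Cst3 fell from 25547, 15307 and 8496 to 5107 and 4624, by 1.76 ± 0.41 on the log2 scale, and Irf8 from 972, 698 and 401 to 55.2 and 389, by 1.82 ± 0.60. H2-DMb1, which loads peptide onto MHC class II, fell by 1.14 ± 0.26 on the log2 scale. The makeup of the cells differed too, and 9 of 14 and 12 of 12 fixed cells carried Cd209a against 0 of 9, 19 of 36 and 30 of 38 fresh ones, the 0 in a table that held no Cd209a. With Cd209a-marked cells alone Cst3 and H2-DMb1 lost their calls, at log2 changes of −0.23 (adjusted p = 0.49) and −0.69 (adjusted p = 0.075), and Irf8 was not among the genes tested. Actb, Malat1, Gpx3 and Hbb-bs kept theirs there. Cst3, Irf8 and H2-DMb1 were also not called among cells with at least 2 marking UMIs or without methanol replicate 2, nor Irf8 without fresh replicate 2. Only 24 genes were called without methanol replicate 2, 123 without fresh replicate 2, 64 among cells with at least 2 marking UMIs and 79 among Cd209a-marked cells. The 1 warm methanol library with dendritic cells held 7, with a summed stress list of 10722 CPM against 1629 and 1901 in the cold fixed ones, and allowed no test.

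Shares of dendritic cells were compared over libraries by two-sided exact permutation tests, 9 per measure, in which 3 against 3 cannot give a p under 0.1. Of the 9, the 4 with methanol-fixed or Balb/c male libraries take in tables that held none of the marking genes, and their values are not read. Dendritic cells made up 0.382%, 0.881% and 0.702% of barcodes in fresh cold and 0.332%, 0.151% and 0.244% in fresh warm C57BL/6J libraries, a mean of 0.655% ± 0.253 (SD, n = 3) against 0.242% ± 0.0905 (exact p = 0.1, adjusted 0.13). The groups did not overlap. Each table could show different marking genes, and among Cd209a-marked cells the means were 0.510% (2 libraries) against 0.242% (exact p = 0.2, the smallest possible). Cryopreserved cold libraries held 2.90%, 2.21% and 2.92% and cryopreserved warm ones 0.717%, 1.70% and 1.63%. Female libraries held 0.152%, 0.189% and 0.181% fresh and 0.972%, 1.69% and 1.68% cryopreserved (exact p = 0.1). The fresh female tables held neither Cd209a nor Flt3. Clec9a-marked cells came to means of 0.166% fresh and 0.864% cryopreserved in females (exact p = 0.1). In cold C57BL/6J libraries they came to 0.112% and 0.173% (exact p = 0.7). In cryopreserved libraries each group stood above its fresh partner without overlap. The study reported a strong loss of proximal tubule cells after cryopreservation, which shrinks the barcodes that this share is taken over. How far that loss moved the share was not tested. Among Cd209a-marked cells the means were 2.28% cryopreserved and 0.510% fresh in cold libraries (3 against 2, exact p = 0.2, the smallest possible) and 1.22% and 0.242% in warm ones (exact p = 0.1). The fresh cold mean again leaves out replicate 1.

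As a share of MHC class II barcodes the picture differed. Fresh cold libraries stood at 3.15%, 7.004% and 6.01% and cryopreserved cold ones at 6.42%, 5.79% and 6.74%, means of 5.39% and 6.32% whose ranges overlap (exact p = 0.7). That difference turned with the stricter rule, to −0.00413 percentage points, and without cold fresh replicate 1, to −0.191. Warm libraries stood at 3.14%, 1.27% and 2.54% fresh and at 2.56%, 3.98% and 5.03% cryopreserved, means of 2.31% ± 0.953 and 3.86% ± 1.24 (exact p = 0.2), a difference that turned to −0.409 points at 500 UMIs per barcode. Among Cd209a-marked cells the means were 4.22% fresh (2 libraries) and 5.40% cryopreserved in cold libraries (exact p = 0.2, the smallest possible) and 2.31% and 3.54% in warm ones (exact p = 0.4). The fresh cold mean leaves out replicate 1 here too and has the same limit. Clec9a-marked cells of the cold libraries went the other way, from a mean of 0.910% fresh to 0.408% cryopreserved (3 against 3, exact p = 0.5). Female libraries went from 2.01%, 2.52% and 2.05% to 5.02%, 8.23% and 7.87% (exact p = 0.1, adjusted 0.23), and Clec9a-marked cells from a mean of 2.08% to 4.21% (exact p = 0.1). Warm libraries stood below cold ones after cryopreservation (exact p = 0.1). They did so in fresh cells too (exact p = 0.1), but there the highest warm share, 3.14%, all but met the lowest cold one, 3.15%, of a library whose table held no Cd209a. Thinned to 500 UMIs per barcode, the groups overlapped in both comparisons. Cryopreserved libraries then stood at 2.37%, 1.95% and 2.73% warm and 2.43%, 3.88% and 5.56% cold. Fresh ones stood at 4.03%, 1.32% and 2.92% warm and 2.91%, 4.63% and 3.39% cold. The shares of Cd209a-marked cells after cryopreservation, 3.54% warm and 5.40% cold, overlapped (exact p = 0.3). In the 5 libraries without marking genes a count of 0 allows no statement on share.

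Bulk RNA-seq of whole kidney suspensions gave a view of the marking genes that no filter on cells had touched, a comparison added after the data had been seen. In warm against cold C57BL/6J suspensions 214 of 14102 genes rose and 115 fell (1.52% and 0.815%, 2.33% called in all). Clec9a was at 5.01, 4.69 and 6.19 CPM (here per 1000000 reads) in cold and 2.99, 3.47 and 1.47 in warm suspensions, a log2 change of −1.03 ± 0.29 (edgeR, adjusted p = 0.049). In bulk, fewer cells of a type and less RNA per cell cannot be told apart. Of the 12, 15 and 9 barcodes with Clec9a in the fresh cold C57BL/6J cell libraries, 2, 8 and 3 were dendritic cells by the rule. Flt3, at 2.57, 2.68 and 2.86 against 1.95, 1.59 and 1.21, did not pass (adjusted p = 0.13), nor did Cd209a (−0.74, adjusted p = 0.29) or Zbtb46 (−0.13). Cd83, Il1b and Ccl4 rose by 1.69, 1.97 and 4.09.

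Intact Balb/c female kidneys, never dissociated, were set against cold suspensions of the same strain, with 589 genes higher and 316 lower of 16538 in the intact tissue (3.56% and 1.91%, 5.47% called in all). Flt3 was at 1.00, 1.10 and 1.48 CPM in suspensions and 0.289, 0.769 and 0.481 in intact kidneys, lower in intact tissue by a log2 change of −1.21 ± 0.34 (edgeR, adjusted p = 0.032), a call kept in 1 of 6 sets with a library left out. The integrin gene Itgax (−1.30 ± 0.21), Ccr2 (−1.46 ± 0.20) and Mgl2 (−1.24 ± 0.20) were lower in intact tissue too and kept their calls in all 6 sets. Clec9a (−0.81, adjusted p = 0.059) and Cd209a (−0.84, adjusted p = 0.14) did not pass, Xcr1 (−0.84) was under the 2-fold needed, and Zbtb46 lay in the other direction at 0.48.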

How the data were processed

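Kidneys of C57BL/6J and Balb/c mice gave 27 single-cell, 12 single-nucleus and 15 bulk libraries. The authors aligned 10x Genomics reads to mm10 with Cell Ranger 2.1.1, separated cells from empty droplets with EmptyDrops, set a minimum of 10 cells per gene in a library (the tables still hold some genes below it), kept cells with 200 to 3000 genes and under 50% mitochondrial UMIs, and deposited the resulting UMI counts for each cell. Bulk tables hold deposited read counts per gene. The members, gene lists and tests were chosen with earlier results of these data known.

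UMIs of dendritic cells were summed per library (at least 5 cells each, at least 2 libraries per group) and tested with edgeR 4.0.16 (R 4.3.3; quasi-likelihood, TMM scaling, filterByExpr, Benjamini-Hochberg adjustment over all genes tested). A gene was called at an adjusted p under 0.05 and an absolute log2 change of at least 1. In fits of cells the 13 genes of the rule counted toward depth and were not tested; the marking genes were tested in bulk, and shares of cells carrying one were compared. Genes at 0 in every barcode of a library in the fit were left out of that fit, a step added after the data had been seen, because such zeros can come from the authors' filter. Comparisons of classes within libraries carried the library as a covariate and needed 3 cells of each class. The scripts were tested on simulated data.

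Levels (CPM) are counts per 1000000 UMIs of the summed cells. Named genes were any gene of the marker lists, and up to 10 called genes per direction with the largest change that kept their call with every library left out in turn; others named were chosen after their values were seen. Wilson intervals (95%) and limits for counts of 0 (3 counts, per library for shares and over the group for folds) cover counting error only. Nothing says that replicates were independent beyond coming from separate mice. Fresh and stored libraries are paired, since per the study they were aliquots of the same suspensions; the pairs were taken from tags in the C57BL/6J column headers, which the replicate numbers follow and whose meaning the headers do not give (correlations of same-tag deviations 0.02 to 0.16). The tags, shared by warm and cold libraries, also paired warm with cold fresh cells (0.15, 0.10 and 0.19), while warm and cold cryopreserved cells shared a tag alone (0.11, 0.03 and 0.08). Main fits carried no block, so their p-values treat the libraries as independent, and fits with a replicate block were an alternative. Which female cryopreserved library matched which fresh one is not given in the sources used here. Alternatives covered DESeq2 1.42.0 and its size factors, no count filter, stricter rules, a 2-UMI minimum, thinning to 500 UMIs, left-out libraries, and cells matched on Cd209a or Clec9a. Bulk comparisons and the comparison of kinds over 8 libraries were added after the data had been seen. The nuclei were used only to count barcodes that pass the rule or parts of it.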

Additional observations from a re-analysis of the deposited data

Results flagged for a closer look

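The change between warm and cold dissociation differed between dendritic cells and macrophages for 6 genes by a test of the difference itself (edgeR, adjusted p = 0.028 for each). On the log2 scale, dendritic cells minus macrophages, the difference was 4.19 for Cd14, 4.08 for Plac8, 4.05 for Il1b, 3.14 for Ier2, 1.98 for Ifitm2 and −4.09 for Id2. Plac8 was at 142, 366 and 182 CPM in cold and 120, 653 and 418 in warm dendritic cells, and at 7, 49 and 25 against 0, 5 and 0 in macrophages. Its own change in dendritic cells did not pass (log2 change 0.71, edgeR, adjusted p = 0.58). Differences with a class near 0 UMIs depend on the prior count, as for Plac8 in macrophages and Il1b and Cd14 in cold dendritic cells. Ifitm2 was at 308, 468 and 716 against 1556, 1335 and 1292 in dendritic cells and at 627, 500 and 510 against 342, 363 and 421 in macrophages. None of the 6 was called without cold fresh replicate 2, and none was called with Cd209a-marked cells.

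The rule was also met in libraries outside the comparisons: 83 of 98303 barcodes in the 12 single-nucleus libraries passed it, 1 to 12 per library, among 1644 barcodes with at least 3 MHC class II UMIs. A marking gene was seen in 16 to 210 barcodes per library, most of which did not pass the rule. Whether the 83 are dendritic cell nuclei was not tested.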

How the results depend on the processing

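In the 22 libraries with dendritic cells there were 7 to 38 of them. The other 5 had 0 because the marking genes were at 0 or missing in their tables, and 98 of the 379 cells rested on 1 UMI of a marking gene. Results below are given in the order named, and no cause was tested. Of the named genes, calls and directions held in 4216 tests under alternatives, 484 lost the call, and 2 changed direction, both with Cd209a-marked cells: Cst3 in warm against cold fresh cells (0.12) and Tubb5 in cryopreserved against fresh cold cells (0.22). Of the counts of called genes 136 stayed within 1.5 times.

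Genes called in warm against cold fresh cells (30) came to 78 (38 up, 40 down) with no count filter and 51 in 1 fit over all C57BL/6J libraries. In cryopreserved against fresh cold cells (72) they came to 122 (89 up, 33 down) with no filter and 38 with strict members, those also without 12 further markers of other cells. In cryopreserved against fresh warm cells (5) they came to 43 (22 up, 21 down) with no filter, 1 with strict members, 3 with at least 2 marking UMIs, 2 without tubule, hemoglobin and mitochondrial genes and 18 in 1 fit. In the females (8) the same order gave 30, 14, 3 and 1, and Clec9a-marked cells gave 4. In fixed against fresh cells (186, 136 up and 50 down), no filter gave 76 up and 143 down, 2 marking UMIs gave 64 and Cd209a-marked cells 79. In warm against cold cryopreserved cells (30) there were 46 (30 up, 16 down) with no filter, 17 with 2 marking UMIs and 12 in 1 fit. Between the kinds in the 2 fresh cold libraries (46), DESeq2's size factors gave 27, DESeq2 7 and no filter 25. Over the 8 libraries (36), no filter gave 104, 2 marking UMIs 55, C57BL/6J libraries alone 22 and female libraries alone 18. Against macrophages (197), no filter gave 1023, adjusted p alone 470, 2 marking UMIs 431 and female libraries alone 692, and against B cells (121) no filter gave 339. For the difference from macrophages (6), DESeq2 gave 3 (2 higher, 1 lower), no filter 14, 2 marking UMIs 2 and Cd209a-marked cells 1. In bulk, adjusted p alone gave 1224 genes for warm against cold (329) and 3313 for intact against cold (905).

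With 1 library left out at a time the counts ran from 23 to 41 for warm against cold fresh, 64 to 104 for cryopreserved against fresh cold, 3 to 13 warm and 4 to 29 female, 24 to 236 for methanol, 15 to 31 for warm against cold cryopreserved, 26 to 44 for the kinds, 157 to 273 against macrophages, 97 to 143 against B cells, 0 to 15 for the difference from macrophages, and 246 to 305 and 822 to 910 in bulk. With a replicate block the counts were 32, 88, 8, 161 and 36 for warm against cold fresh, cryopreserved against fresh cold and warm, methanol, and warm against cold cryopreserved cells, of which the 8 was over 1.5 times the 5; no call of a single gene that the report gives in these comparisons changed, while the heat shock genes that rose went from 5 to 6 in cryopreserved against fresh cold cells and came to 1 up and 2 down in warm against cold cryopreserved ones. No paired analysis was possible for the females because no source used here says which libraries share a suspension.

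Differences in share that involve fixed cells average in libraries whose 0 was set by their tables (cold methanol replicate 1, warm methanol replicates 2 and 3), so neither their sign nor a change of it says anything about shares. That of all barcodes changed sign for fixed against fresh warm with Cd209a-marked cells (0.240 points) and for warm against cold fixed with strict members (0.0363), Cd209a-marked cells (0.268) and left-out libraries (−0.179 to 0.0624). That of MHC class II barcodes changed sign for cryopreserved against fresh cold with strict members (−0.00413) and left-out libraries (−0.191 to 1.74), for cryopreserved against fresh warm thinned to 500 UMIs (−0.409), for fixed against fresh warm with Cd209a-marked cells (0.853), and for warm against cold fixed with strict members (0.229), Cd209a-marked cells (1.75) and left-out libraries (−1.18 to 0.400). Too few libraries held dendritic cells to run fits for fixed against fresh warm, warm against cold fixed, Balb/c male against C57BL/6J, warm change in fresh against fixed cells, strict, 2-UMI and left-out fits of the kinds in 2 libraries, and the Balb/c male fit against macrophages.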
